A study of Mus musculus with 4 samples.

Results

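The 8 genes Grik1, 4930420G21Rik, Arntl2, Fchsd2, Slc9a7, Chsy3, Gm32122 and 6030407O03Rik were followed through oligodendrocyte nuclei of the mouse spinal dorsal horn. They are 8 of the 32285 genes in the count tables, matched by symbol, and all 8 had UMIs (unique molecular identifiers, each standing for 1 captured transcript) in every library. They were selected on their measured UMIs in these same libraries, among them knockout to wild-type contrasts in oligodendrocyte nuclei. Their levels and ratios are therefore a description and carry no test.

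The data are single-nucleus RNA-seq profiles (10x Genomics 3′ chemistry, v3.1) of microdissected spinal dorsal horn from mice lacking the receptor gene Gpr37l1 (Gpr37l1-/-, here KO) and from mice with both copies (Gpr37l1+/+, here WT). The 4 groups were KO mice 1 day after spared nerve injury (SNI, in which part of the sciatic nerve is cut), KO naive mice, WT mice 1 day after SNI and WT naive mice, with 1 library each. SNI is a model of neuropathic pain. Age, sex, strain background and the number of animals behind a library, and how the allele was deleted, are not stated in the labels. With 1 library per group there is no replicate spread, so each ratio compares 2 libraries, and its 95% interval covers counting error only. Differences between animals, dissections and library preparations cannot be told apart from genotype or injury.

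The labels disagree in part. Titles and library names gave the groups used here, but the treatment tag of the KO naive library reads SNI and that of the WT SNI library reads naive. If the tags were right, both KO libraries would be injured and both WT libraries naive, and genotype could not be told apart from injury. Gpr37l1 itself fitted the genotype labels: in astrocyte-like nuclei its level was 1.87 CPM (counts per 1000000 UMIs of the class) in KO SNI and 0 in KO naive (0 of 1407384 UMIs, 95% upper bound 2.62 CPM), against 146 CPM in WT SNI and 147.8 CPM in WT naive nuclei.

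Grik1 encodes GluK1, a subunit of kainate receptors, which are glutamate-gated cation channels. In the dorsal horn kainate receptors are known from sensory afferents and interneurons, and oligodendrocyte-lineage cells carry ionotropic glutamate receptors as well. Arntl2 encodes BMAL2, a basic helix-loop-helix partner of CLOCK that binds E-box DNA and drives circadian transcription. Fchsd2 encodes an F-BAR and SH3 protein that promotes actin assembly during endocytosis, Slc9a7 encodes the sodium-proton exchanger NHE7 of the trans-Golgi network, and Chsy3 encodes a chondroitin sulphate synthase. 4930420G21Rik, Gm32122 and 6030407O03Rik are long intergenic non-coding RNAs (lincRNAs) with no stated function here. Oligodendrocytes form the myelin of the central nervous system and differ in state along maturation.

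On GRCm38, Grik1 lies on the minus strand of chromosome 16 (87895900 to 88290265) and 4930420G21Rik on the plus strand of the same chromosome (88376609 to 88443450), as GENCODE vM21 places them. Their starts are 86.3 kb apart and they are read away from each other. Arntl2 lies on the plus strand of chromosome 6 (146796055 to 146833529), Fchsd2 on the plus strand of chromosome 7 (101092863 to 101284405) and Slc9a7 on the minus strand of chromosome X (20105754 to 20291807). Gm32122 lies on the minus strand of chromosome 8 (96371727 to 96403862) and 6030407O03Rik on the minus strand of chromosome 1 (73618088 to 73864466).

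Promoter sequence was at hand for 4 of the 8 genes. The 250 bases before the RefSeq start (GRCm38.p6) are shown, with each CG dinucleotide in capitals, for Arntl2, which was lower in KO oligodendrocytes, for Fchsd2, which was higher, and for 6030407O03Rik, a leading gene of the oligodendrocyte state in which both were followed. They are chr6:146805280-146805529 on the plus strand, chr7:101108525-101108774 on the plus strand and chr1:73864467-73864716 on the minus strand.
Arntl2: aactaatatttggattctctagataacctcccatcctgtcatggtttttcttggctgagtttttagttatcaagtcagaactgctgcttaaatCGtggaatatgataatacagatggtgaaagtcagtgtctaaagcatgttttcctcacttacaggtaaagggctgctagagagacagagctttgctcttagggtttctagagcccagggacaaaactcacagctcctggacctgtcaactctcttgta
Fchsd2: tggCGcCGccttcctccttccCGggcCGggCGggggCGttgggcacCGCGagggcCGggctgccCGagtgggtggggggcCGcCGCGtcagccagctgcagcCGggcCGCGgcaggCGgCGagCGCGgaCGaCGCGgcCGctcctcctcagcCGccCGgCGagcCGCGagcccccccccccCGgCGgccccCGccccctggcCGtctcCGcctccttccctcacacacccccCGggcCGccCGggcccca
6030407O03Rik: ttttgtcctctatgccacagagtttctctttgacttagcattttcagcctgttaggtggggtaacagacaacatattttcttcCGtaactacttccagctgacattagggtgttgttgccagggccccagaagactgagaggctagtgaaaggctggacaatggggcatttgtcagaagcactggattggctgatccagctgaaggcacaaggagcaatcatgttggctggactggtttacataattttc
The Fchsd2 window holds 37 CG dinucleotides, those of Arntl2 and 6030407O03Rik 1 each, and the Slc9a7 window (chrX:20291828-20292077, minus strand, not printed) 19, where the median over 32851 promoters is 6 with quartiles of 2 and 16. The RefSeq start used for Arntl2 lies 9.48 kb inside the GENCODE gene and that for Fchsd2 15.9 kb inside. The E-box CACGTG, which reads the same on both strands, occurs in 6.02% of all 250-base promoters and the SOX core ACAAAG or its reverse complement CTTTGT in 16.5%. Neither word is in any of the 4 windows.

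The 4 libraries held 112746 barcodes and 199454882 UMIs, with 35197290 to 69572640 UMIs per library and a median of 1284 to 1509 UMIs per barcode. After filters 104228 nuclei were kept, and 19761 of them fell in clusters called oligodendrocyte-like from their markers: 4762 in KO SNI, 6338 in KO naive, 4085 in WT SNI and 4576 in WT naive. All 9 oligodendrocyte markers (Mbp and Mog among them) had UMIs there in every library, and summed to 9643, 7897, 9088 and 10040 CPM in KO SNI, KO naive, WT SNI and WT naive nuclei. A total of 1290 barcode sequences occurred in more than 1 library, and 103 to 127 oligodendrocyte-like nuclei per library carried such a barcode. All 7 general neuron markers (Snap25, Syt1 and Rbfox3 among them) also had UMIs in oligodendrocyte-like nuclei of every library, at a summed 3693, 7819, 3369 and 2318 CPM in KO SNI, KO naive, WT SNI and WT naive. In neurons the same sum was 23580 to 24920 CPM. The KO naive library thus stood apart from the other 3 in neuron RNA inside its oligodendrocyte-like nuclei, and results that use it are given beside those that do not.

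Oligodendrocyte-like nuclei fell into 3 clusters, found without the 8 genes. The state led by Gm32122, Art3, 6030407O03Rik and Carns1, called the Carns1 and Art3 state here, held 1807, 1090, 1410 and 1539 nuclei in KO SNI, KO naive, WT SNI and WT naive, and 8 of the 9 oligodendrocyte markers were raised in it. It held many nuclei in all 4 libraries, so it carries the main comparison. The larger cluster, called the main state, held 2777, 325, 2616 and 3011 nuclei in the same order. The third cluster was almost all KO naive (178, 4923, 59 and 26 nuclei) and was not compared. Within the Carns1 and Art3 state the neuron marker sum was 3044, 5950, 2630 and 1693 CPM in KO SNI, KO naive, WT SNI and WT naive.

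Grik1, the kainate receptor subunit, was about 6 times lower in KO than in WT nuclei of the Carns1 and Art3 state, both after injury and in naive cord. It had 185 UMIs in KO SNI and 222 in KO naive nuclei, against 1058 in WT SNI and 1435 in WT naive nuclei, which is 97.5 and 139.7 CPM against 597.4 and 833.6 CPM. The counting intervals of the KO libraries (83.9 to 112.6 and 122 to 159.4 CPM) and of the WT libraries (561.9 to 634.5 and 791 to 877.9 CPM) did not overlap. Nor did the SNI and naive intervals within KO or within WT, and Grik1 was selected on its UMIs in these libraries. The log2 ratio was -2.62 for KO SNI over WT SNI (95% counting interval -2.85 to -2.39) and -2.58 for KO naive over WT naive (-2.79 to -2.37). These pairs share no library. In bulk sums over nuclei, fewer nuclei with the transcript and fewer transcripts per nucleus cannot be told apart. Between injury states Grik1 was lower after SNI in both genotypes, at -0.52 (-0.81 to -0.23) in KO and -0.48 (-0.60 to -0.37) in WT.

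The same Grik1 UMIs were also counted over single nuclei of the state, without a comparison at equal mean level. Nuclei with 3 or more Grik1 UMIs numbered 7 of 1807 in KO SNI and 8 of 1090 in KO naive, against 121 of 1410 in WT SNI and 160 of 1539 in WT naive, or 0.387%, 0.734%, 8.58% and 10.4%. After each nucleus was thinned to 1000 UMIs, a Grik1 UMI was found in 5.68% of KO SNI nuclei (45 of 793, Clopper-Pearson 95% interval 4.17 to 7.52) and 11.3% of KO naive nuclei (111 of 986, 9.35 to 13.4). In WT the shares were 35.9% after SNI (368 of 1024, 33 to 39) and 47.1% in naive cord (407 of 864, 43.7 to 50.5). Unthinned shares were 8.25%, 16.8%, 40.3% and 48.5% at median depths of 950, 1368, 1166 and 1044 UMIs in KO SNI, KO naive, WT SNI and WT naive. Thinning left out 1014, 104, 386 and 675 shallower nuclei in that order.

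As a background, astrocyte-like nuclei thinned to the same depth had a Grik1 UMI in 5.99% of KO SNI, 15% of KO naive, 4.37% of WT SNI and 4.59% of WT naive nuclei, at median depths before thinning of 806, 1114, 1038 and 922 UMIs. The share in KO nuclei of the state lay below the astrocyte share of the same library, and in KO SNI its interval included the astrocyte share. The WT shares of the state lay above the astrocyte shares of the same library, with intervals that did not overlap. By its share alone, Grik1 in KO nuclei of the state was not above that in astrocyte-like nuclei at this depth.

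**Figure D1:**
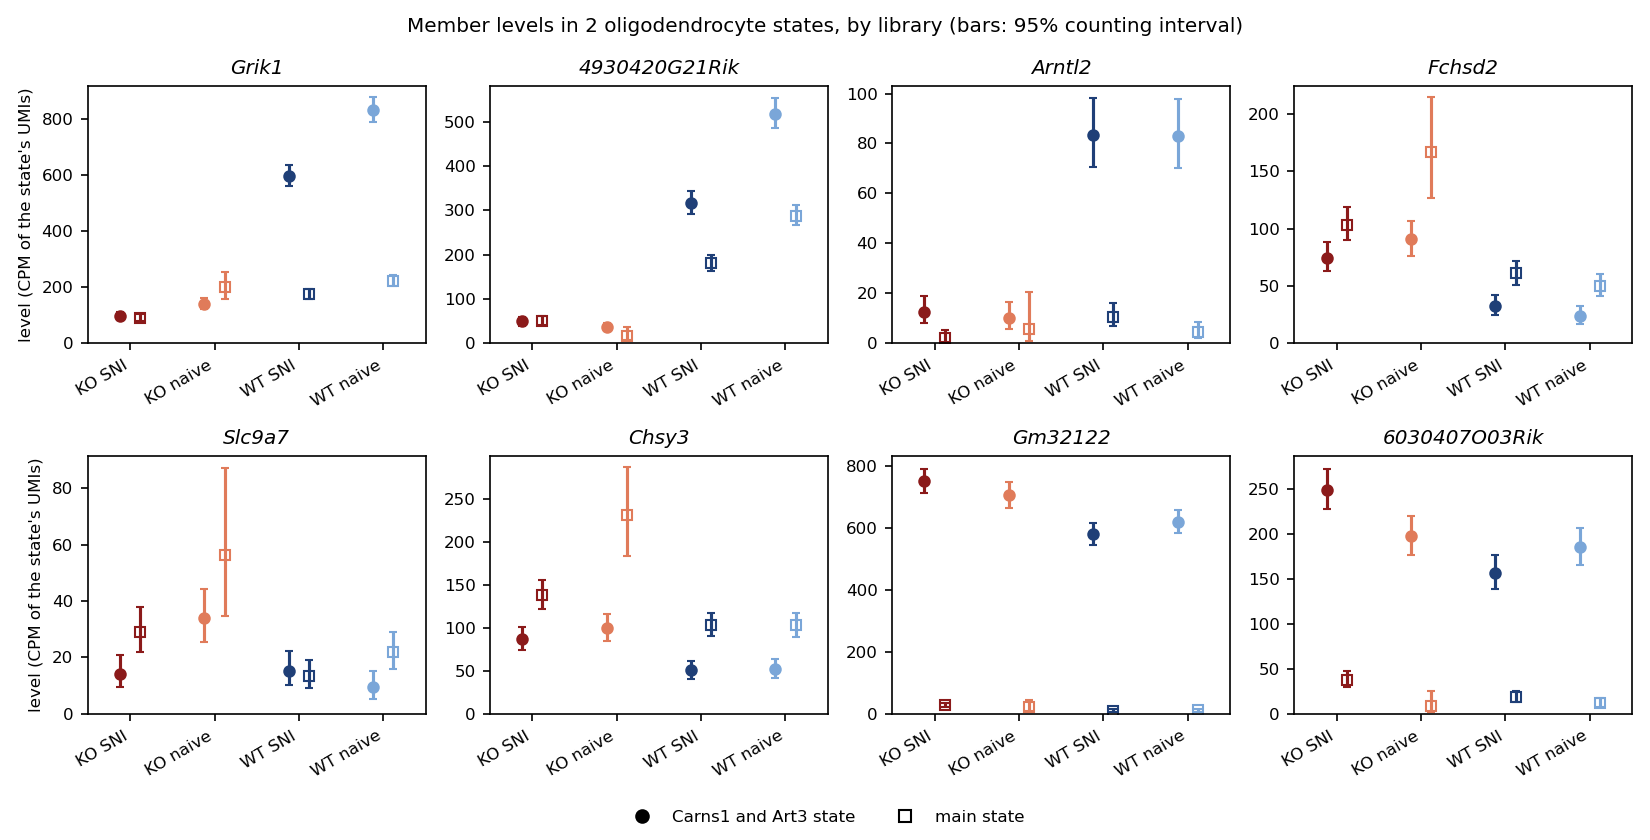
Level of each of the 8 genes (y axis, CPM of the state) in the KO SNI, KO naive, WT SNI and WT naive libraries (x axis). Filled circles are the Carns1 and Art3 state, open squares the main state, and bars the 95% counting interval. Grik1, 4930420G21Rik and Arntl2 sit lower in both KO libraries of the Carns1 and Art3 state, for Grik1 at 97.5 and 139.7 CPM against 597.4 and 833.6 CPM in WT, and Fchsd2 sits higher.

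The lincRNA 4930420G21Rik, the neighbour of Grik1 on chromosome 16, was lower in KO in the same nuclei. In the Carns1 and Art3 state it had 93 UMIs in KO SNI and 57 in KO naive, against 561 in WT SNI and 892 in WT naive, or 49 and 35.9 CPM against 316.7 and 518.2 CPM. The log2 ratio was -2.69 in SNI libraries (-3.03 to -2.37) and -3.85 in naive libraries (-4.27 to -3.47), which is 6.47-fold and 14.4-fold lower in KO. At 1000 UMIs per nucleus its share was 3.78% in KO SNI and 4.06% in KO naive nuclei, against 25.5% in WT SNI and 41.6% in WT naive nuclei. Unlike Grik1, it was nearly absent from astrocyte-like nuclei, with 5 to 7 UMIs in each library.

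In the main state Grik1 and the lincRNA behaved differently by CPM. 4930420G21Rik was lower in KO there too, at 50.2 and 16.9 CPM in KO SNI and KO naive against 179.8 and 288 CPM in WT SNI and WT naive (log2 ratio -1.84, -2.17 to -1.51, and -4.09, -5.54 to -2.96). The KO naive value rests on 6 UMIs. Grik1 had 90.7 CPM in KO SNI and 200.4 CPM in KO naive main-state nuclei, against 175.6 CPM in WT SNI and 222.6 CPM in WT naive nuclei. Its log2 ratio was -0.95 in SNI libraries (-1.22 to -0.69) and -0.15 in naive libraries, with an interval of -0.53 to 0.21 that includes no difference. KO naive main-state nuclei had 7351 CPM of general neuron markers, against 2760 CPM in WT naive nuclei, and the part of neuron RNA in the Grik1 value was not tested. Per 100 general neuron marker UMIs, main-state nuclei had 2.37 and 2.73 Grik1 UMIs in KO SNI and KO naive. In WT SNI and WT naive they had 4.62 and 8.065, so on this scale KO lay below WT in both pairs. The scale divides by the neuron markers, which were 7351 and 2760 CPM in the naive pair. It therefore cannot decide whether Grik1 differed between KO naive and WT naive main-state nuclei. The cluster of KO naive nuclei that was not compared held 222 CPM of Grik1 and 33.9 CPM of 4930420G21Rik, beside 8536 CPM of general neuron markers.

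Genes around Grik1 were looked up within 1 Mb of either end of the gene. Of 50 annotated genes, 8 had at least 50 UMIs in oligodendrocyte-like nuclei of each pair, and 2 of these were at least 2-fold lower in KO in both pairs: 4930420G21Rik and Gm33255. Gm33255, a minus-strand lincRNA that overlaps the start of 4930420G21Rik, had log2 ratios of -3.59 in SNI libraries (-4.68 to -2.66) and -5.33 in naive libraries (-6.40 to -4.42). Reads of overlapping genes on opposite strands can be told apart only if counting used strand, and the labels do not say whether it did. The other 6 genes, N6amt1, Ltn1, Usp16, Cct8, B130034C11Rik and Bach1, lay between -0.28 and 0.44 in SNI libraries and between -0.21 and 0.40 in naive libraries.

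**Figure D2:**
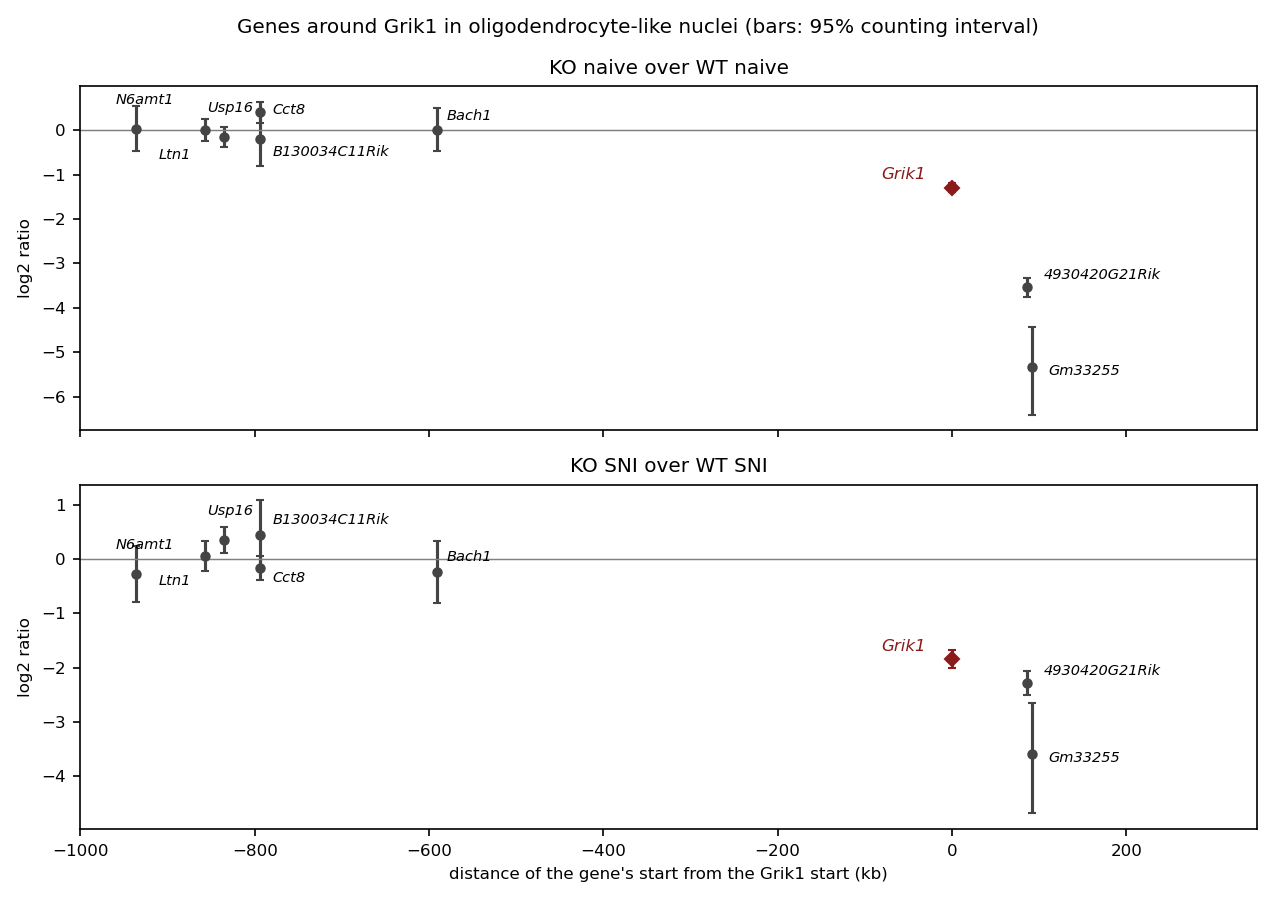
Log2 ratio of KO to WT CPM (y axis) in oligodendrocyte-like nuclei against the distance of each gene's start from the Grik1 start (x axis, kb), for naive libraries (upper panel) and SNI libraries (lower panel), with 95% counting intervals as bars. Grik1 (diamond), 4930420G21Rik and Gm33255 lie below -1 in both panels, and the other 6 genes, all beyond the far end of Grik1, lie between -0.28 and 0.44.

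Arntl2, the clock factor, showed the same direction from fewer transcripts. In the Carns1 and Art3 state it had 24 UMIs in KO SNI and 16 in KO naive, against 148 in WT SNI and 143 in WT naive, or 12.6 and 10.1 CPM against 83.6 and 83.1 CPM. The log2 ratio was -2.72 in SNI libraries (-3.41 to -2.10) and -3.04 in naive libraries (-3.89 to -2.29). Between the WT libraries the values differed by less than counting error (log2 ratio 0.01 for SNI over naive, -0.33 to 0.35). Most of its WT oligodendrocyte UMIs came from this state: 148 of 172 in WT SNI and 143 of 153 in WT naive. The thinned share was 1.14% and 1.32% in KO SNI and KO naive against 7.62% and 8.22% in WT SNI and WT naive, where astrocyte-like nuclei gave 1.30%, 0.735%, 0.819% and 1.08% in KO SNI, KO naive, WT SNI and WT naive. In the main state Arntl2 had 4, 2, 23 and 10 UMIs in the same order, too few for a ratio. Within 1 Mb of either end of Arntl2 lie 27 genes, of which 13 in the SNI pair and 14 in the naive pair had enough UMIs. None of those passed 2-fold in either pair of oligodendrocyte-like nuclei. Within the state 10 of them had enough UMIs in each pair, and 1 passed 2-fold: Stk38l, 71.1 kb away, was higher in KO naive at 1.37 (0.61 to 2.18), with -0.33 (-0.97 to 0.30) in the SNI pair.

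Fchsd2, the F-BAR endocytosis gene, was higher in KO. In the Carns1 and Art3 state it had 142 UMIs in KO SNI and 144 in KO naive, against 57 in WT SNI and 41 in WT naive, or 74.8 and 90.6 CPM against 32.2 and 23.8 CPM. The log2 ratio was 1.22 in SNI libraries (0.76 to 1.69) and 1.93 in naive libraries (1.42 to 2.47), which is 2.32-fold and 3.81-fold higher in KO. Main-state nuclei gave 0.77 (0.44 to 1.10) and 1.73 (1.25 to 2.20). Thinned shares in the Carns1 and Art3 state were 5.93% and 8.42% in KO SNI and KO naive, against 3.32% and 2.43% in WT SNI and WT naive. Astrocyte-like nuclei had a Fchsd2 UMI in 15.4%, 18.3%, 12.7% and 13.8% of KO SNI, KO naive, WT SNI and WT naive nuclei. The share in the state lay below that in every library. Per 100 general neuron marker UMIs, astrocyte-like nuclei had 5.07, 2.89, 4.41 and 7.18 Fchsd2 UMIs in the same order. Neurons had 1.13, 1.12, 0.908 and 0.914. Astrocyte-like nuclei are therefore no background that lacks Fchsd2, and the share in the state is by itself not read as expression or as its absence. On chromosome 7 the minus-strand gene Atg16l2 overlaps Fchsd2. Atg16l2 had log2 ratios of 0.09 (-0.38 to 0.56) and 0.83 (0.42 to 1.26) in oligodendrocyte-like nuclei of SNI and naive libraries.

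Slc9a7, the Golgi sodium-proton exchanger, was higher in KO naive than WT naive nuclei of the Carns1 and Art3 state, while the interval for the SNI pair included no difference. It had 27 UMIs in KO SNI and 54 in KO naive, against 27 in WT SNI and 16 in WT naive, or 14.2 and 34 CPM against 15.2 and 9.29 CPM. The log2 ratio was -0.10 in SNI libraries (-0.93 to 0.73) and 1.87 in naive libraries (1.04 to 2.78). In the main state the ratios were 1.12 (0.45 to 1.82) and 1.37 (0.54 to 2.16). The intervals of the states overlapped in the SNI pair, so a difference between the states is not read from it. Its UMIs per 100 general neuron marker UMIs in the Carns1 and Art3 state were 0.467, 0.571, 0.579 and 0.549 in KO SNI, KO naive, WT SNI and WT naive, and in neurons 0.569, 0.565, 0.517 and 0.492. The UMIs seen in the state were thus 0.821 to 1.12 times the number that the neuron markers in the same nuclei would bring at the neurons' own ratio. In the main state they were 1.33, 1.36, 0.68 and 1.61 times that number in KO SNI, KO naive, WT SNI and WT naive. On this scale KO lay above WT in the SNI pair of the main state and below WT in its naive pair.

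Chsy3, the chondroitin sulphate synthase on the plus strand of chromosome 18 (59175401 to 59535999), was higher in KO, and in the Carns1 and Art3 state below 2-fold in both pairs. It had 165 UMIs in KO SNI and 158 in KO naive nuclei of the Carns1 and Art3 state, against 89 in WT SNI and 89 in WT naive, or 86.9 and 99.4 CPM against 50.2 and 51.7 CPM. The log2 ratio was 0.79 in SNI libraries (0.41 to 1.18) and 0.94 in naive libraries (0.56 to 1.34). In the main state it had 138.3 and 231.5 CPM in KO SNI and KO naive, against 103.3 and 102.9 CPM in WT SNI and WT naive, with ratios of 0.42 (0.16 to 0.68) and 1.17 (0.79 to 1.54), so the naive pair passed 2-fold there. By CPM the same direction held in astrocyte-like nuclei, at 0.53 (0.05 to 1.02) and 1.59 (1.05 to 2.16). In neurons it held too, at 0.27 (0.22 to 0.33) and 0.36 (0.31 to 0.42). Per 100 general neuron marker UMIs, astrocyte-like nuclei had 1.70 and 1.65 Chsy3 UMIs in KO SNI and KO naive. In WT SNI and WT naive they had 1.39 and 1.82. On that scale KO lay above WT in the SNI pair and below WT in the naive pair. The part of neuron RNA in the Chsy3 values was not tested. Thinned shares in the state were 7.19% and 9.84% in KO SNI and KO naive, against 4.49% and 4.51% in WT SNI and WT naive.

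The lincRNAs Gm32122 and 6030407O03Rik lead the Carns1 and Art3 state, and that they are high in it is no finding, since every gene of these nuclei was open to the choice. Gm32122 had 750.7 CPM in KO SNI and 704.9 CPM in KO naive nuclei of the state, against 579.3 CPM in WT SNI and 618.7 CPM in WT naive nuclei. Its log2 ratio was 0.37 (0.26 to 0.49) and 0.19 (0.07 to 0.31) in SNI and naive libraries. 6030407O03Rik had 249.7 and 197.6 CPM in KO SNI and KO naive, against 157 and 185.9 CPM in WT SNI and WT naive, with ratios of 0.67 (0.45 to 0.89) and 0.09 (-0.14 to 0.32). After thinning to 1000 UMIs a Gm32122 UMI was found in 46.5%, 36%, 31.5% and 38.4% of nuclei in KO SNI, KO naive, WT SNI and WT naive. Both lincRNAs stayed within 2-fold, so within the state they differed far less between genotypes than Grik1, 4930420G21Rik and Arntl2 did. All these genes were selected on UMIs of these libraries, KO to WT contrasts among them, so this comparison is a description only. Main-state nuclei held at most 26.9 CPM of Gm32122 and 37.3 CPM of 6030407O03Rik in any library.

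Over all oligodendrocyte-like nuclei those lincRNAs gave other directions, and the mix of states differed between libraries. Gm32122 had 370.9, 196.2, 261.7 and 279.1 CPM in KO SNI, KO naive, WT SNI and WT naive, with log2 ratios of 0.50 (0.39 to 0.62) in SNI libraries and -0.51 (-0.63 to -0.39) in naive libraries. 6030407O03Rik had 138.6, 72.9, 79.7 and 88.5 CPM, with ratios of 0.80 (0.60 to 1.00) and -0.28 (-0.48 to -0.08). The state that holds them made up 1807 of 4762, 1090 of 6338, 1410 of 4085 and 1539 of 4576 oligodendrocyte-like nuclei in KO SNI, KO naive, WT SNI and WT naive.

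Set against all genes, the 3 genes lower in KO stood near the end of the distribution, as the choice of members fixed. In the Carns1 and Art3 state, 2.8% of 8284 genes with 50 or more UMIs over the naive pair were at least 2-fold lower in KO naive and 7.22% at least 2-fold higher. In the SNI pair 0.449% of 8682 genes were 2-fold lower in KO and 0.703% 2-fold higher. Among the 8 genes, Grik1, 4930420G21Rik and Arntl2 were 2-fold lower in each pair, Fchsd2 was 2-fold higher in each, and Slc9a7 was 2-fold higher in the naive pair. Of 8073 genes measured in both pairs, 8 were 2-fold lower in both (0.0991%) and 10 were 2-fold higher in both (0.124%). Ranked by the smaller of their ratios, Gm33255 and Tnni1 came before Arntl2, 4930420G21Rik and Grik1 at the low end. Kcnj6 and Cadps2 came before Fchsd2 at the high end. Just below the 3 lower genes was Clic5 (-1.86 in SNI and -2.61 in naive libraries). The median log2 ratio over all genes was 0.01 in the SNI pair and 0.08 in the naive pair.

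Over all oligodendrocyte-like nuclei the share of genes 2-fold lower in KO was 3.72% in naive and 0.537% in SNI libraries, and 8.44% and 0.845% were 2-fold higher. There the same 3 genes were 2-fold lower in both pairs: Grik1 at -1.84 and -1.30, 4930420G21Rik at -2.28 and -3.54, and Arntl2 at -2.57 and -2.01 for SNI and naive libraries. Fchsd2 (0.95 and 1.64) and Slc9a7 (0.65 and 1.64) passed 2-fold in the naive pair. Among genes with at least 200 UMIs, Tnni1, Arntl2, 4930420G21Rik and Grik1 were the lowest 4 in the SNI pair, followed by Tmem163 (-1.71), and Lgals1 (2.53), Hba-a1, S100a10, Csf1r and Hbb-bs (2.02) were the highest. In the naive pair the lowest were Hba-a1 (-5.50), Gm33255, Hba-a2, Hbb-bs and Tnni1 (-4.48), and the highest Gm45323 (2.88), B830012L14Rik, Ryr3, Adamts17 and Erc2 (2.61). The haemoglobin genes Hba-a1 and Hbb-bs lay in opposite directions in the pairs.

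**Figure D3:**
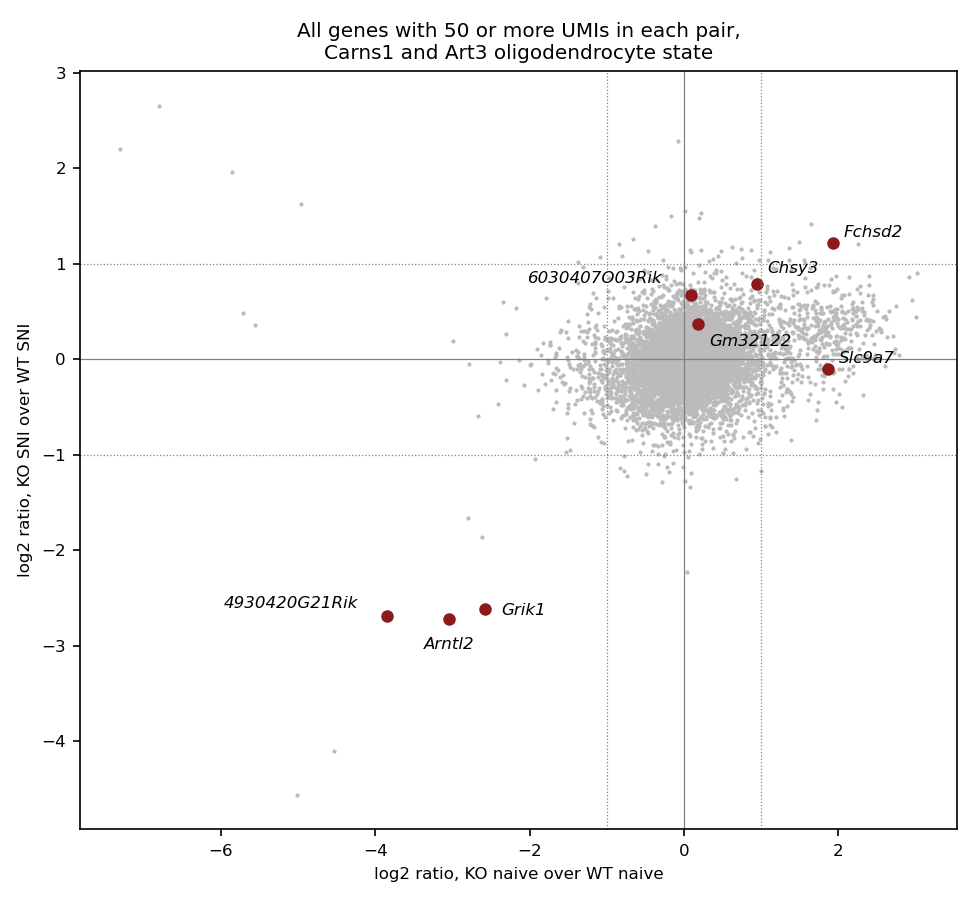
Log2 ratio of KO naive over WT naive (x axis) against KO SNI over WT SNI (y axis) for the 8073 genes with 50 or more UMIs in each pair in the Carns1 and Art3 state, each a grey point, with the 8 genes in red and dotted lines at 2-fold. Arntl2, 4930420G21Rik and Grik1 lie in the lower left, away from most genes, and Fchsd2 lies in the upper right among 10 genes past both lines.

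Grik1, Arntl2, Fchsd2, Slc9a7 and Chsy3 are also expressed in neurons, and neuron RNA was present in oligodendrocyte-like nuclei at levels that differed between libraries. Per 100 general neuron marker UMIs, the Carns1 and Art3 state had 3.20 and 2.35 Grik1 UMIs in KO SNI and KO naive, against 22.7 and 49.3 in WT SNI and WT naive. In neurons the same quantity was 1.94, 2.07, 1.82 and 1.79, and in astrocyte-like nuclei 1.86, 2.56, 1.77 and 2.34, in KO SNI, KO naive, WT SNI and WT naive. At the neurons' own ratio, the neuron markers in the state would come with 112.3 and 196.1 Grik1 UMIs in KO SNI and KO naive, where 185 and 222 were seen, and with 84.7 and 52.2 in WT SNI and WT naive, where 1058 and 1435 were seen. The WT counts thus exceeded that number 12.5 and 27.5 times, the KO counts 1.65 and 1.13 times.

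For Arntl2 the state had 4.52 and 1.79 times the neurons' ratio in KO SNI and KO naive, against 31.2 and 47.5 times in WT SNI and WT naive. Fchsd2 had 2.18 and 1.35 times in KO SNI and KO naive, against 1.35 and 1.54 times in WT SNI and WT naive, so its KO and WT values overlapped on this scale. Chsy3 had 3.13 and 1.79 times against 2.64 and 4.20 times, which overlap too. For Fchsd2 and Chsy3 alike, KO lay above WT in the SNI pair and below WT in the naive pair on this scale. How much of any KO to WT ratio comes from neuron RNA was not tested. Microglia markers in the state, 8 of 8 with UMIs in every library, summed to 637.4, 202.7, 348.4 and 268.4 CPM, and astrocyte markers, 9 of 9, to 410.9, 318.5, 371.5 and 330.5 CPM, in KO SNI, KO naive, WT SNI and WT naive.

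**Figure D4:**
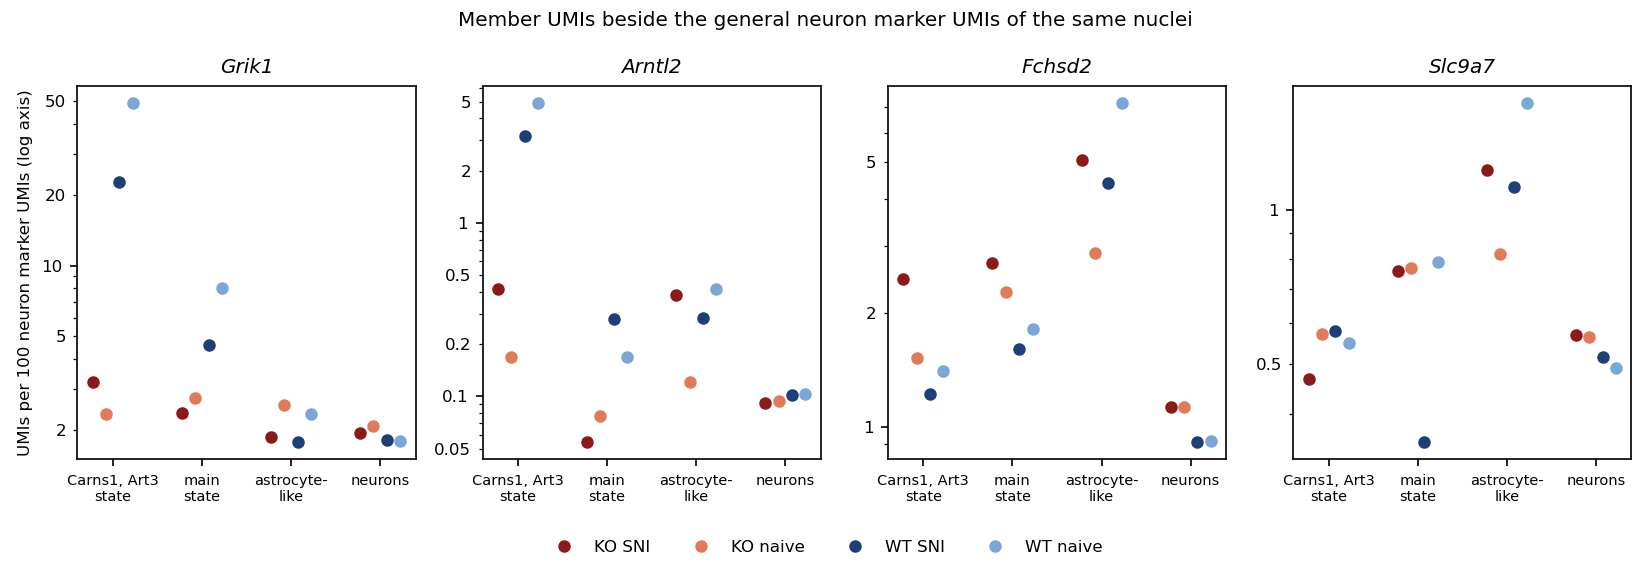
UMIs of Grik1, Arntl2, Fchsd2 and Slc9a7 per 100 general neuron marker UMIs of the same nuclei (y axis, log scale) in the Carns1 and Art3 state, the main state, astrocyte-like nuclei and neurons (x axis), with 1 point for each of the KO SNI, KO naive, WT SNI and WT naive libraries. For Grik1 the WT points of the Carns1 and Art3 state stand at 22.7 and 49.3, while its KO points, at 3.20 and 2.35, lie near those of neurons at 1.94 and 2.07.

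In the other cell classes Grik1 was nowhere 2-fold lower in KO. In neurons, with 9478 to 20491 UMIs per library, it had 458.1, 517.1, 446.8 and 444.7 CPM in KO SNI, KO naive, WT SNI and WT naive, and log2 ratios of 0.04 (-0.0022 to 0.07) and 0.22 (0.18 to 0.25) in SNI and naive libraries. It was higher in inhibitory than in excitatory neurons in every library, at 674.8, 726.4, 719.3 and 685.8 CPM against 441.5, 484.3, 432.5 and 433.3 CPM. The highest of 15 neuron clusters was an inhibitory one, at 1318, 1339, 1634 and 1472 CPM. Precursor nuclei held 461.5, 501.3, 318.4 and 283 CPM, with ratios of 0.54 (0.25 to 0.82) and 0.82 (0.52 to 1.14) in SNI and naive libraries. Microglia-like nuclei had 290 and 340 CPM in KO SNI and KO naive, against 390.2 and 238.3 CPM in WT SNI and WT naive, so Grik1 was lower in KO in the SNI pair (-0.43, -0.58 to -0.28) and higher in the naive pair (0.51, 0.27 to 0.76). General neuron markers there were 13630 and 16780 CPM in KO SNI and KO naive, and 15380 and 8328 CPM in WT SNI and WT naive, and their part was not tested. Astrocyte-like nuclei had 66 CPM in KO SNI and 179.8 CPM in KO naive, against 53.1 CPM in WT SNI and 49.6 CPM in WT naive, with log2 ratios of 0.31 (-0.13 to 0.76) and 1.86 (1.40 to 2.35). The neuron marker sum of those astrocyte-like nuclei was 3550, 7014, 3003 and 2118 CPM, so the high KO naive value came with the highest neuron marker sum, and its part was not tested.

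Arntl2 in neurons was 21.7, 23.5, 25 and 25.6 CPM in KO SNI, KO naive, WT SNI and WT naive (log2 ratio -0.21, -0.38 to -0.04, and -0.12, -0.28 to 0.03). Fchsd2 in neurons was 265.4, 280.3, 223.2 and 226.7 CPM, with ratios of 0.25 (0.20 to 0.30) and 0.31 (0.26 to 0.35) in SNI and naive libraries, and in astrocyte-like nuclei 0.44 (0.17 to 0.71) and 0.41 (0.11 to 0.72). These are smaller than in the state. Fchsd2 differed in direction between the pairs in microglia-like nuclei, at 0.83 (0.69 to 0.96) in SNI and -0.26 (-0.44 to -0.08) in naive libraries, and in precursor nuclei, at 0.49 (0.25 to 0.73) and -0.39 (-0.62 to -0.15). Slc9a7 in neurons was 134.2, 140.9, 127 and 122 CPM, with ratios of 0.08 (0.01 to 0.15) and 0.21 (0.14 to 0.28).

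4930420G21Rik is low outside oligodendrocytes, and its KO and WT levels in microglia-like nuclei were ordered as in oligodendrocytes. In microglia-like nuclei it had 14.6 and 7.8 CPM in KO SNI and KO naive, against 56.7 and 69.4 CPM in WT SNI and WT naive. Oligodendrocyte markers summed there to 2329 and 2491 CPM in KO SNI and KO naive, and 2456 and 2917 CPM in WT SNI and WT naive. Per 100 oligodendrocyte marker UMIs it had 0.626, 0.313, 2.31 and 2.38 UMIs in microglia-like nuclei, against 0.510, 0.424, 2.64 and 3.88 in oligodendrocyte-like nuclei, in KO SNI, KO naive, WT SNI and WT naive. In neurons it was 1.72 and 2.2 CPM in KO SNI and KO naive, against 4.57 and 3.38 CPM in WT SNI and WT naive.

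**Figure D5:**
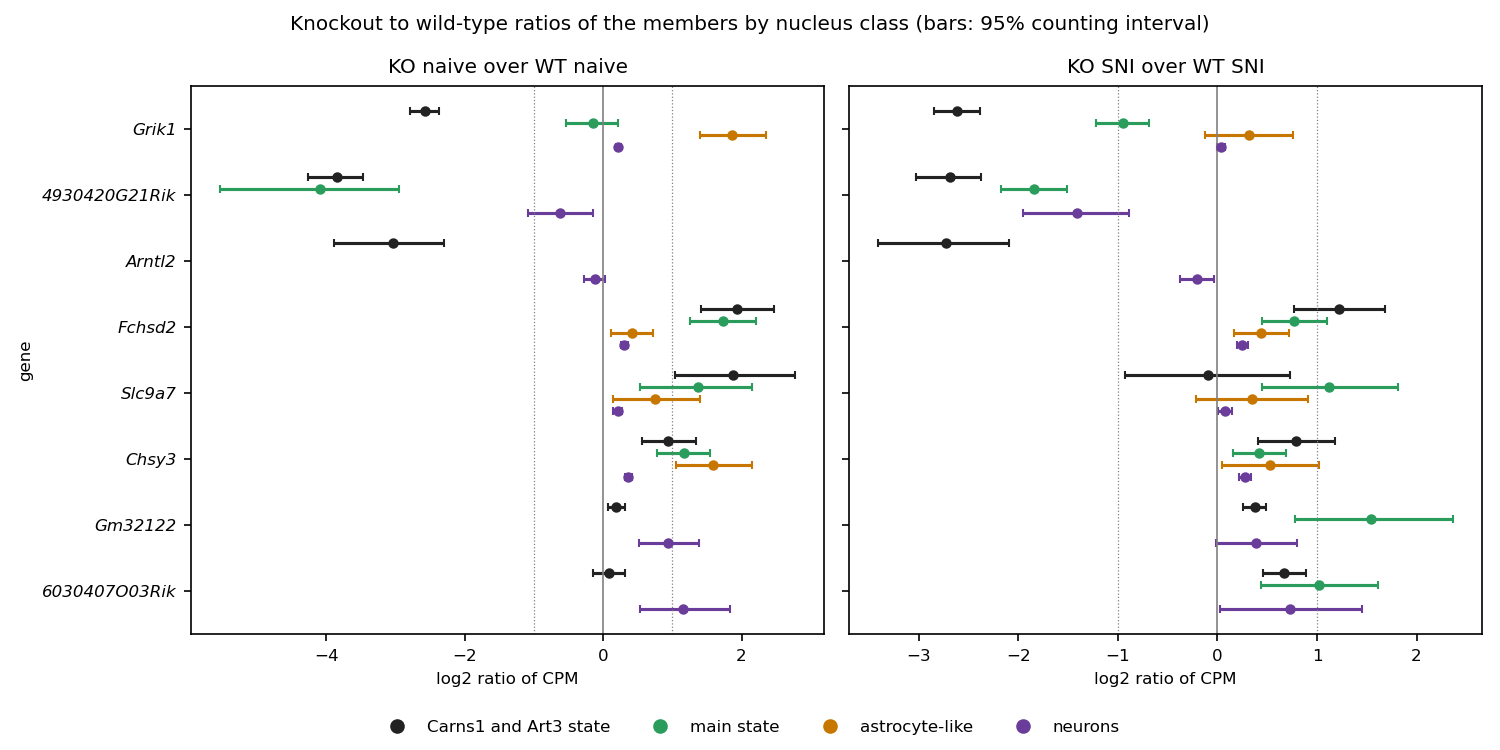
Log2 ratio of KO to WT CPM (x axis) for each of the 8 genes (y axis), in naive libraries (left panel) and SNI libraries (right panel), in the Carns1 and Art3 state, the main state, astrocyte-like nuclei and neurons, with 95% counting intervals as bars, dotted lines at 2-fold, and points shown only with 50 or more UMIs in the pair. In the Carns1 and Art3 state Grik1 stands at -2.58 and -2.62 while neurons stand at 0.22 and 0.04, and for 4930420G21Rik both oligodendrocyte states stand below -1.

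In the Carns1 and Art3 state and over all oligodendrocyte-like nuclei, the SNI to naive ratios of Grik1 and 4930420G21Rik were nearer to 0 than their KO to WT ratios. The main state was an exception for Grik1, at -1.14 (-1.55 to -0.73) for KO SNI over KO naive, beside KO to WT ratios of -0.95 and -0.15. Over all oligodendrocyte-like nuclei, 3.11% of genes were 2-fold higher and 4.29% 2-fold lower in KO SNI than in KO naive, and Slc9a7 was the only one of the 8 genes past 2-fold (-1.17, -1.52 to -0.84). In WT, 1.02% were 2-fold higher and 0.348% 2-fold lower after SNI, and none of the 8 genes passed. Both WT contrasts of the Grik1 locus were lower after SNI: Grik1 at -0.44 (-0.54 to -0.34) and 4930420G21Rik at -0.70 (-0.82 to -0.58). In KO, Grik1 was lower at -0.98 (-1.15 to -0.82), beside neuron marker sums of 3693 CPM in KO SNI and 7819 CPM in KO naive, while 4930420G21Rik was higher at 0.56 (0.27 to 0.84). The KO and WT injury contrasts use different libraries, but each genotype contrast shares a library with each injury contrast.

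Lists of genes related to the members were also counted over oligodendrocyte-like nuclei. Of 19 ionotropic glutamate receptor and accessory genes 18 had enough UMIs, and in the naive pair 17 were higher and 1 lower in KO, with a median of 1.09 where all genes had 0.07. Grik1 was the lower one, and Grid1 (2.05), Grin2a (1.72), Gria1 (1.43) and Grin3a (1.35), which encode delta, NMDA and AMPA receptor subunits, were the 4 highest. In the SNI pair 11 were higher and 7 lower with a median of 0.02. Grik3, another kainate receptor subunit (-0.44), and Gria4, an AMPA subunit (0.39), lay furthest from 0 besides Grik1. General neuron markers were 7819 CPM in KO naive and 2318 CPM in WT naive oligodendrocyte-like nuclei, against 3693 CPM in KO SNI and 3369 CPM in WT SNI.

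Among 20 clock genes, 17 were higher and 3 lower in KO naive (median 0.29, where all genes had 0.07). At the high end were Npas2 (1.95), Per2 (1.59), Rora (1.30) and Rorb (1.20), where 8.44% of all genes were 2-fold higher. For these clock genes the naive pair also differed in cluster mix and, as above, in general neuron markers, whose part was not tested. In the SNI pair 6 were higher and 14 lower (median -0.10), and 3 were 2-fold lower, where 0.537% of all genes were: Arntl2, which was selected on such contrasts, Ciart (-1.09) and Dbp (-1.06), and of these Dbp encodes a clock output transcription factor and Ciart a repressor of the clock. No clock gene other than Arntl2 was 2-fold lower in the naive pair. Of 21 F-BAR and endocytic actin genes 18 were measured, 9 higher and 9 lower in the naive pair and 10 and 8 in the SNI pair. Fnbp1l, an F-BAR activator of actin assembly, was higher in both (0.68 and 1.15 for SNI and naive, and 1.12 in both pairs of the Carns1 and Art3 state), and Fcho1 (-1.54) was the lower extreme of the naive pair.

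Among 9 sodium-proton exchangers 6 had enough UMIs in the naive pair, of which 4 were higher in KO (Slc9a5 at 1.20 among them), and 5 in the SNI pair, with 4 higher (Slc9a9 at 0.35 among them). Of 19 chondroitin sulphate genes, 17 were measured in the naive pair, 14 higher and 3 lower (Csgalnact1 1.83, Chst11 1.54, Xylt1 1.18, Chst3 -1.16). Over all genes of that pair 8.44% were 2-fold higher and 3.72% 2-fold lower. The part of its cluster mix and neuron markers in these chondroitin gene values was not tested. In the SNI pair 9 of 16 were higher (Dse 0.51 and Csgalnact1 0.37).

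Oligodendrocyte identity genes were described next to these. The naive pair sets different clusters side by side, since 4923 of 6338 KO naive but 26 of 4576 WT naive nuclei were in the cluster that was not compared, and general neuron markers were 7819 against 2318 CPM. In that pair all 16 mature oligodendrocyte genes were lower in KO (median -0.47, where all genes had 0.07), and within the Carns1 and Art3 state 15 of 16 were lower (median -0.31). Over all oligodendrocyte-like nuclei 1 was 2-fold lower, where 3.72% of all genes were, with Ptgds, which makes prostaglandin D2, at -1.24, Hopx at -0.97, Anln at -0.75 and Car2 at -0.59. In the SNI pair 8 were higher and 8 lower (Ptgds -0.44, Anxa5 0.43). Of 9 measured genes of newly formed oligodendrocytes 4 were higher and 5 lower in the naive pair (Carns1 -0.51, Enpp6 -0.50, Rras2 0.32, Fyn 0.20), and 6 higher and 3 lower in the SNI pair (Rras2 0.90, Itpr2 0.48). Among 11 stress and injury genes 8 were higher in the naive pair (C4b 0.71, H2-K1 0.69, Sgk1 0.65, Hspa5 0.46), and of 12 in the SNI pair 5 were higher and 7 lower, with the injury factor Atf3 at 2.96 and Zbtb16 at -1.42. Of 10 abundant cytoplasmic transcripts 3 were higher and 7 lower in the naive pair (Gapdh -0.67, Ubb -0.36, Tuba1a -0.33, Aldoc 0.30) and 5 and 5 in the SNI pair (Aldoc -0.58, Rplp0 0.52).

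Genes whose level was most like each member were named from 39 sums of 1 class or cluster in 1 library, over 9628 genes. The sums share libraries and nuclei, so the correlations are a description. Most like Grik1 were Fam169a (r = 0.848), Clgn (0.806) and Galnt17 (0.795), and most like Arntl2 were Rps6ka2 (0.709), Tcte2 (0.672) and again Clgn (0.664). Kctd13 (0.932) was the nearest to 4930420G21Rik, followed by 4930511M06Rik and Adipor2. Nav2 (0.94) was nearest to Fchsd2, and Cacna1d (0.969), a calcium channel subunit, to Slc9a7. Chsy3 was nearest to Pip5k1b (0.909). The state lincRNAs followed Mapre2 (0.938) and Carns1 (0.937) for Gm32122 and Ldlrad3 (0.943) for 6030407O03Rik, and correlated with each other at 0.891. Grik1 and 4930420G21Rik, neighbours on chromosome 16, correlated at -0.07 over the 39 sums, which include the neurons, where Grik1 was high and 4930420G21Rik low.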

How the data were processed

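Nuclei of microdissected mouse dorsal horn were profiled in 4 libraries, 1 per group, so no test across libraries was made. The deposited values are raw UMI counts per gene and barcode from Cell Ranger 7.0.0, per the file headers. Build GRCm38 and the tools R 4.3.0 and Seurat 4.3.0 are listed in the submitters' processing notes. The annotation used in counting, and whether strand was used, were not given in the sources used here.

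Nuclei with at least 300 genes and at most 5% mitochondrial UMIs were kept (552 barcodes removed), and 7966 predicted doublets were removed with scrublet as run in scanpy 1.11.5 (expected rate 10%, automatic threshold in the KO libraries and the 90th percentile of the score in the WT libraries, where no automatic threshold worked). Clustering used 3000 variable genes without the members and listed genes, 40 principal components, 20 neighbours and Leiden resolution 1 (leidenalg 0.10.2). Clusters were called "-like" from marker lists, with at least 3 markers raised. The limits used for naming, such as a general neuron sum of 70% of the highest cluster, were set after seeing the data. Clusters that no list named stayed out, among them 1 with 193, 4891, 4776 and 66 nuclei in KO SNI, KO naive, WT SNI and WT naive.

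Counts were summed per class and library and divided by the class total without mitochondrial genes (CPM). Levels have exact Poisson and ratios exact conditional binomial 95% intervals (scipy 1.17.1), which cover counting error only. A gene needed 50 UMIs over a pair of libraries, and "2-fold" means an absolute log2 ratio of at least 1. The ratios and intervals were run on simulated Poisson counts with known fold changes. Those counts held no variation between animals, libraries or cell mixtures, so that run speaks to counting error only. Members and lists were chosen with earlier results of these data known. Named genes are the members, the genes furthest from 0 in each list (4 in the naive and 2 in the SNI pair), the 3 most similar genes per member by Pearson correlation of log2(CPM + 1), and the 5 highest and lowest genes per contrast with at least 200 UMIs. Gm33255, Stk38l, Atg16l2, Clic5, Kcnj6, Cadps2 and the genes around Grik1 were named after their values were seen. Some genes that this rule names are not reported here. Alternatives were other scaling, no minimum, thinning to 1000 UMIs, a stricter nucleus filter, kept doublets, separate clustering, resolution 0.5, 1 shared cluster, and nuclei without neuron marker UMIs.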

Additional observations from a re-analysis of the deposited data

Results flagged for a closer look

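Each value below is a log2 ratio with its 95% counting interval. It is listed because the same contrast gave ratios of opposite sign in another class, genotype or injury state, and none of these differences was tested.

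Grik1 in KO naive over WT naive libraries was -2.58 (-2.79 to -2.37) in the Carns1 and Art3 state, 1.86 (1.40 to 2.35) in astrocyte-like nuclei and 0.22 (0.18 to 0.25) in neurons. The neuron marker sum in astrocyte-like nuclei was 7014 CPM in KO naive, against 2118 CPM in WT naive.

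4930420G21Rik in SNI over naive oligodendrocyte-like nuclei was 0.56 (0.27 to 0.84) in KO and -0.70 (-0.82 to -0.58) in WT. Fchsd2 in the same contrast was -0.38 (-0.56 to -0.20) in KO and 0.32 (0.0016 to 0.63) in WT.

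Over all oligodendrocyte-like nuclei Gm32122 was 0.50 (0.39 to 0.62) in KO SNI over WT SNI and -0.51 (-0.63 to -0.39) in KO naive over WT naive. 6030407O03Rik was 0.80 (0.60 to 1.00) and -0.28 (-0.48 to -0.08) in the same pairs. The Carns1 and Art3 state, which holds most of their UMIs, had 1807 of 4762, 1090 of 6338, 1410 of 4085 and 1539 of 4576 of those nuclei in KO SNI, KO naive, WT SNI and WT naive. Within the state 6030407O03Rik was 0.34 (0.13 to 0.55) in SNI over naive KO nuclei and -0.24 (-0.48 to -0.01) in WT nuclei.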

How the results depend on the processing

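These alternatives were run on all oligodendrocyte-like nuclei. Grik1, 4930420G21Rik, Arntl2 and Fchsd2 kept their KO to WT direction in each one that gave a value. The number of members 2-fold higher in KO SNI than WT SNI was 0, where 0.845% of all genes were. It became 1 after thinning to 1000 UMIs and 1 with the stricter nucleus filter. In the shared cluster alone, which is the Carns1 and Art3 state, it was 1, where 0.703% of genes were. For KO SNI over KO naive, 0 members were higher and 1 lower, where 3.11% and 4.29% of all genes were. Thinning gave 2 members higher and 2 lower, the stricter filter gave 2 higher, and clustering each library alone gave 2 lower. For the thinned, stricter and separately clustered settings the share of all genes past 2-fold is not given here. Their counts are therefore not read as a result about the members, and the cause was not tested. Over all alternatives the KO to WT ratio in SNI and naive libraries ranged from -2.62 to -1.81 and -2.58 to -1.30 for Grik1, -2.69 to -2.25 and -3.85 to -3.49 for 4930420G21Rik, -2.72 to -2.46 and -3.30 to -1.95 for Arntl2, 0.83 to 1.22 and 1.54 to 1.93 for Fchsd2, and 0.41 to 0.79 and 0.82 to 1.14 for Chsy3. Slc9a7 ranged from -0.10 to 0.65 in SNI libraries, and Gm32122 and 6030407O03Rik from -1.12 to 0.19 and -0.60 to 0.09 in naive libraries, so these 3 change sign with the nuclei summed, and Gm32122 passed 2-fold lower in naive libraries after thinning (-1.12) and with the stricter filter (-1.02). Thinning to 500 in place of 1000 UMIs moved 64 of 72 shares. Only 8 KO naive nuclei were without neuron marker UMIs, so contrasts with KO naive gave no value there. No paired analysis was possible because each group has 1 library, and for the same reason no replicate could be left out.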
